A study of Mus musculus with 48 samples.

Results

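The age comparison in cerebellum of Tia1 knock-out (KO) mice was taken from a study of 48 arrays, 1 per tissue sample, of which 6 were used for it: KO cerebellum at 6 months (n = 3) and KO cerebellum at 3 months (n = 3), chosen by tissue, genotype and age in the sample labels. Mouse numbers 122970, 122972 and 122973 appear in the labels at both ages. Cerebellum of wild-type (WT) mice at 6 and 3 months and KO spinal cord and midbrain at the same ages (n = 3 each) were used for comparison. KO mice carry a germline disruption of Tia1 and no other engineered allele is named for them. They had been crossed back to C57BL6/J and were bred as homozygotes, so that both ages come from 1 targeted line, and no treatment is named. The methods describe WT mice as purchased C57BL6/J mice, whereas the series description calls them littermates. Expression was measured on Affymetrix perfect-match mouse arrays, and all values below are log2 after Robust Multichip Average (RMA) normalisation, on which a difference of 1 is a 2-fold change. All differences are 6 months minus 3 months, so that a positive value means higher at 6 months.

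Tia1 encodes an RNA-binding protein that takes part in splicing and in silencing of mRNA, and that helps to assemble stress granules. The cerebellum is built from Purkinje cells, which send its output, granule neurons, which outnumber all its other cells, and inhibitory interneurons. Bergmann glia guide and support Purkinje cells, oligodendrocytes wrap axons in myelin, and microglia are the resident immune cells. Mice at both ages are adult: myelin is still being added slowly over these months and microglia and complement are known to become more active with age. The choroid plexus of the fourth ventricle, which makes cerebrospinal fluid, lies directly beneath the cerebellum and is easily taken with it.

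The 6 arrays matched their labels for tissue. Pcp2, a Purkinje cell gene, read 12.24 to 12.42 in KO cerebellum and at most 6.68 in KO midbrain and spinal cord, and Gabra6, the granule neuron GABA receptor subunit, read 12.05 to 12.39 and at most 5.74. The Y-linked Eif2s3y was at 7.98 to 8.35 and Xist at 3.04 to 3.36, the pattern of males, in all 6 mice. The Tia1 gene itself, which the design targets, read lower in KO than in WT mice on 1 of its 6 probe sets, with 6.46, 6.54 and 6.46 in 6-month KO mice and 6.38, 6.51 and 6.61 in 3-month KO mice, against 8.16 to 8.41 in the 6 WT mice. Of the others, the 4 that read above the array medians were higher in every KO mouse than in every WT mouse. Correlations between the 6 arrays were at least 0.994. The gap between 3' and 5' actin control probes, which widens as RNA degrades, was 1.03 to 1.21 at 6 months and 0.93 to 1.04 at 3 months, and its part in the results below was not tested. The WT array that stands apart is replicate 1 at 3 months, whose mean correlation with the other cerebellum arrays was 0.992. With 3 mice at each age, the median standard error of an age difference was 0.13.

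Few transcripts differed with age in KO cerebellum. Of 45037 probe sets tested, 14 were higher at 6 months (0.0311% of those tested) and 24 were lower (0.0533%), at an adjusted p under 0.05 by limma. They map to 26 named genes and 12 probe sets that the annotation leaves without a symbol. The median change was 0.62 among the probe sets that rose and −0.74 among those that fell, against 0.00 over all probe sets. Values of 6-month and 3-month mice did not overlap for 37 of the 38, which were chosen by the test on the same values. Over 17097 genes, 8.52% did not overlap with higher values at 6 months and 6.07% with lower ones. Many were dim, since 19 of the 38 had a mean under 5 in KO cerebellum, where the array medians were 4.21 to 4.26. The calls depended on single mice: with 1 KO array left out at a time, 1 to 11 probe sets were called higher and 4 to 25 lower, and only Meg3, Opalin and the unnamed probe set 1456182_PM_x_at were called in all 6 of these fits. Both counts were smallest without mouse 122970 at 6 months (1 higher, 4 lower). In WT cerebellum the same comparison called 331 probe sets higher (0.735%) and 178 lower (0.395%).

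**Figure D1:**
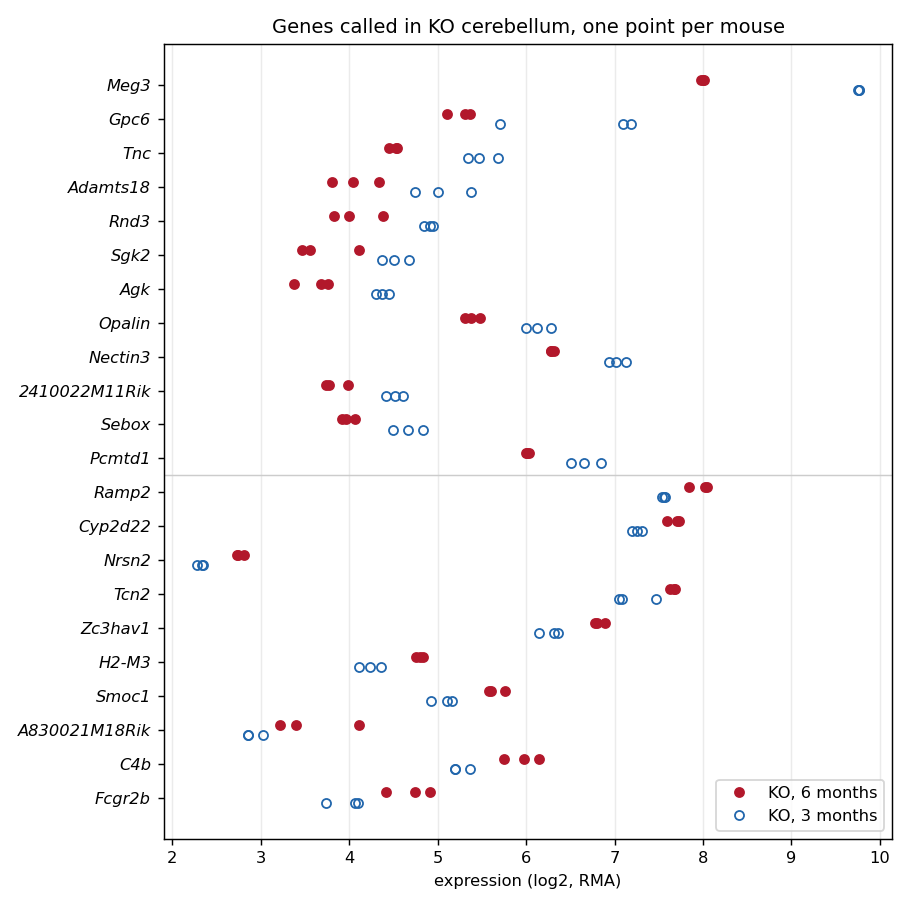
Expression (log2, horizontal axis) of the 22 named genes with the largest changes in KO cerebellum whose values do not overlap between the ages, 1 point per mouse, with 6 months filled and 3 months open. The 12 genes above the line fell and the 10 below it rose. The points of Meg3 nearly coincide within each age, while the 3-month mice of Gpc6 range from 5.71 to 7.19.

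The largest called fall was in Meg3, a maternally expressed imprinted RNA that codes for no protein. One of its 10 probe sets read 7.98, 8.01 and 8.0 in 6-month KO mice, against 9.76, 9.77 and 9.75 in 3-month KO mice. The groups were separated by far more than the spread within them (SD 0.016 at 6 months and 0.0084 at 3 months), and the change was −1.76 ± 0.19 (SE), a fold change of −3.40 (adjusted p = 7.89e-07). WT cerebellum read 9.76, 9.81 and 9.84 at 6 months and 9.90, 9.91 and 9.80 at 3 months, and only the 6-month KO mice were low among the 12 cerebella. The same step was present in KO spinal cord, at 8.74, 8.67 and 8.34 at 6 months and 10.27, 10.37 and 10.19 at 3 months (change −1.69), and in KO midbrain, at 9.24, 9.37 and 9.30 at 6 months and 10.94, 10.93 and 10.85 at 3 months (change −1.60). In liver the probe set was dim in every group, between 2.83 and 4.67.

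The other 9 Meg3 probe sets did not follow. Their changes in KO cerebellum were between −0.04 and 0.13 (lowest adjusted p = 1.00), although their mean levels, 9.5 to 11.91, were as high or higher. Neighbours in the imprinted cluster also gave no call: Mirg, another noncoding RNA, changed by 0.00, the 4 probe sets of Rian by −0.25 to 0.08, and Dlk1, a paternally expressed protein gene, by −0.11. The Meg3 call thus rests on 1 of its 10 probe sets.

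**Figure D2:**
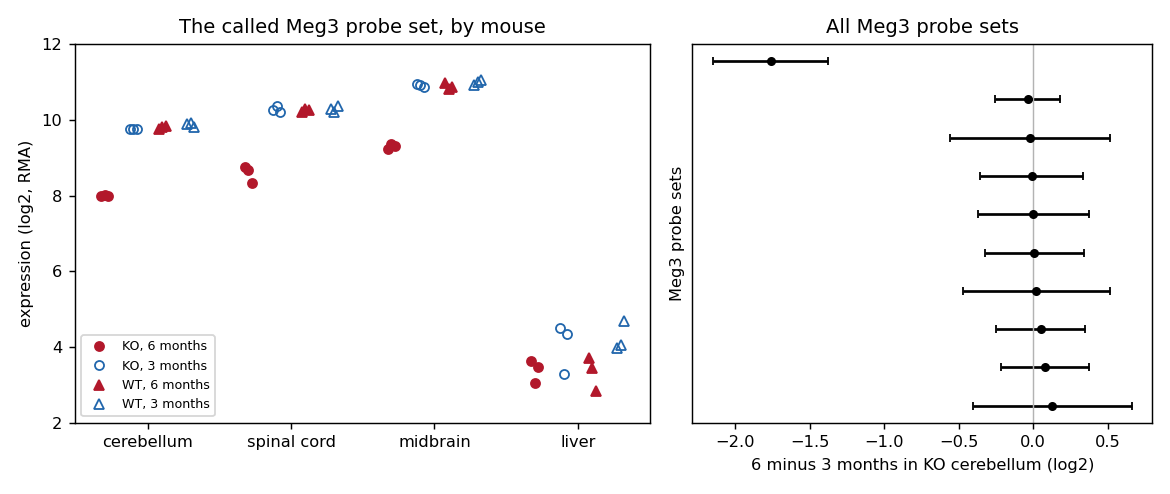
Left, level (log2) of the called Meg3 probe set in each mouse of every tissue, with KO as circles, WT as triangles, 6 months filled and 3 months open. Right, change in KO cerebellum (6 minus 3 months, log2, with 95% confidence intervals) of all 10 Meg3 probe sets: 1 lies at −1.76 and 9 lie between −0.04 and 0.13.

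Of 14 genes of collagens and extracellular matrix, 0 were called in KO cerebellum, with a median change of −0.03. At an unadjusted p under 0.05, 0 were higher and 1 was lower, Nid1, a basement membrane protein (−0.51, adjusted p = 0.279), where 3.16% and 1.83% of 17097 genes were higher and lower. Col3a1 (−0.49), Col6a1 (0.39) and Col5a1 (0.33) were the next largest changes. Some called genes outside that list encode surface or matrix proteins, grouped here after their values were seen. Gpc6, a heparan sulphate proteoglycan anchored in the membrane, read 5.31, 5.11 and 5.37 in 6-month KO mice and 5.71, 7.19 and 7.10 in 3-month KO mice (change −1.41 ± 0.27, adjusted p = 0.0153). Mouse 122970 at 3 months lay close to the 6-month mice, and the other two lay far above. On the next brightest Gpc6 probe sets, with changes of −0.83 (adjusted p = 0.211) and −0.42 (adjusted p = 0.389), mouse 122970 was again the lowest of the 3-month mice. In WT cerebellum Gpc6 read 7.90, 8.06 and 7.97 at 6 months and 7.79, 7.46 and 7.48 at 3 months, above all KO mice. Without mouse 122970 at 3 months the change was −1.89 (adjusted p = 4.55e-05), and without any other 1 of the 6 mice the call was lost (adjusted p up to 0.232).

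Tnc, the matrix glycoprotein tenascin-C, read 4.45, 4.54 and 4.53 at 6 months and 5.47, 5.68 and 5.34 at 3 months (change −1.0 ± 0.17, a fold change of −1.99, adjusted p = 0.00560). It also fell in WT cerebellum, which read 5.46, 5.08 and 4.69 at 6 months and 6.06, 6.09 and 6.04 at 3 months (change −0.99, adjusted p = 8.13e-04). At each age all KO mice read below all WT mice. Adamts18, a secreted metalloprotease, changed by −0.98 (adjusted p = 0.00420), with 3.81, 4.33 and 4.04 at 6 months and 4.74, 5.0 and 5.38 at 3 months. Its other probe sets changed by −0.24 and −0.13, and the called probe set was not the brightest.

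Nectin3, an adhesion molecule of cell junctions and synapses, fell on 1 probe set and came just short of the threshold on another. The called one read 6.31, 6.28 and 6.28 at 6 months and 7.02, 7.13 and 6.94 at 3 months (change −0.74 ± 0.13, adjusted p = 0.00741). A second probe set read 5.77, 6.07 and 5.88 at 6 months and 6.61, 6.62 and 6.72 at 3 months (change −0.74, adjusted p = 0.0506). The other probe sets changed by −0.32 to −0.21. Rnd3, whose protein loosens actin fibres, read 3.83, 3.99 and 4.38 at 6 months and 4.92, 4.95 and 4.84 at 3 months (change −0.83, adjusted p = 0.0153). Its other probe set, which was brighter, changed by −0.03. In the other direction Smoc1, a secreted calcium-binding matrix protein, read 5.58, 5.61 and 5.76 at 6 months and 4.93, 5.10 and 5.17 at 3 months (change 0.58, adjusted p = 0.0120). Of the 9 measured genes of the perineuronal net, the matrix that encloses neurons, only Tnc passed the test, and the list's median was −0.02. Ncan (−0.32), Hapln1 (−0.31) and Hapln2 (0.31) were its next largest changes and did not pass.

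One myelin gene fell with age in KO cerebellum. Opalin, a membrane protein of myelinating oligodendrocytes, read 5.48, 5.37 and 5.31 at 6 months, against 6.28, 6.12 and 6.00 at 3 months (change −0.75 ± 0.12, adjusted p = 0.00420). Its other probe set, which read 2.28 to 2.64 in all 6 mice, changed by 0.28. Opalin was the only one of 11 measured oligodendrocyte and myelin genes to pass the adjusted test. In all, 4 of the 11 were lower at an unadjusted p under 0.05 and 0 were higher, where 1.83% and 3.16% of 17097 genes were lower and higher, and the median change was −0.20 against 0.01 over all genes. Mog, a myelin surface glycoprotein, changed by −0.37 (adjusted p = 0.730), Ugt8a, which makes the myelin lipid galactosylceramide, by −0.31 (adjusted p = 0.838) and Cnp, a myelin enzyme, by −0.22 (adjusted p = 0.889). Mbp, the major myelin basic protein, changed by 0.02.

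The mean level of the 11 genes was 8.12, 8.09 and 8.22 in 6-month KO mice and 8.36, 8.34 and 8.42 in 3-month KO mice, so that the ages did not overlap. In WT cerebellum it was 8.35, 8.32 and 8.32 at 6 months and 8.28, 8.35 and 8.47 at 3 months, and the median change of the list was 0.02. At an unadjusted p under 0.05, 1 of the 11 was lower in WT and 0 were higher, where 3.75% and 9.04% of all genes were. Opalin itself changed by −0.44 in WT (adjusted p = 0.0656), and its KO and WT changes did not differ at the adjusted threshold (difference −0.31, 95% confidence interval −0.66 to 0.04). It fell in KO spinal cord too (change −0.79, adjusted p = 3.16e-04) and read −0.55 in KO midbrain (adjusted p = 0.372). In these bulk samples, fewer oligodendrocytes and less RNA per oligodendrocyte cannot be told apart.

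A complement gene and an antigen-presenting gene, C4b and H2-M3, rose with age. C4b, the fourth complement component, read 6.14, 5.75 and 5.97 at 6 months and 5.37, 5.20 and 5.20 at 3 months (change 0.70 ± 0.12, a fold change of 1.62, adjusted p = 0.00560). Of 14 measured genes of glial activation and antigen presentation, C4b alone passed the adjusted test, 7 were higher and 0 were lower at an unadjusted p under 0.05 (all genes 3.16% and 1.83%), and the median change was 0.35. H2-Aa, a class II antigen-presenting chain, read 4.84, 4.93 and 4.74 at 6 months and 4.44, 3.79 and 4.08 at 3 months (change 0.73, adjusted p = 0.520). Cd74, its chaperone, changed by 0.49 (adjusted p = 0.773) and read at most 4.02 in every KO mouse. Serpina3n, an acute-phase protease inhibitor of reactive astrocytes, changed by 0.42 (adjusted p = 0.802). It was dim and overlapped between the ages, at 3.73, 2.92 and 2.80 at 6 months and 2.63, 2.72 and 2.82 at 3 months, with mouse 122970 at 6 months the highest. Gfap, the astrocyte filament gene, changed by 0.14. The list's median in WT cerebellum was 0.10, with 1 of 14 higher and 0 lower at an unadjusted p under 0.05 (all genes 9.04% and 3.75%).

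Outside that list, H2-M3, which presents bacterial formyl peptides to T cells, read 4.80, 4.75 and 4.83 at 6 months and 4.24, 4.36 and 4.11 at 3 months (change 0.56, adjusted p = 0.0153). Zc3hav1, an antiviral protein that binds foreign RNA, read 6.89, 6.80 and 6.77 at 6 months and 6.32, 6.36 and 6.15 at 3 months (change 0.55, adjusted p = 0.0153). Fcgr2b, the inhibitory antibody receptor of myeloid and B cells, read 4.92, 4.42 and 4.74 at 6 months and 4.10, 3.74 and 4.06 at 3 months (change 0.72, adjusted p = 0.0419), but its other 3 probe sets changed by −0.07 to 0.16. The WT changes were 0.12 for H2-M3, 0.35 for Zc3hav1, 0.03 for Fcgr2b and 0.34 for C4b, and none differed from the KO change at the adjusted threshold (lowest adjusted p = 0.524).

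None of 11 microglial genes passed the adjusted test in KO cerebellum. At an unadjusted p under 0.05, 3 were higher and 0 lower (all genes 3.16% and 1.83%), with a median change of 0.16. Csf1r, the receptor on which microglia depend, changed by 0.34 and Tyrobp, a signalling adaptor, by 0.23. Tmem119 (0.27) and P2ry12 (−0.20), which mark resting microglia, went in different directions. The mean level of the 11 genes was 5.33, 5.28 and 5.48 at 6 months and 5.24, 5.22 and 5.28 at 3 months, which overlap. In WT cerebellum the median change was 0.25, with 4 higher and 0 lower at the same threshold (all genes 9.04% and 3.75%). The 13 measured interferon response genes gave no gene at an unadjusted p under 0.05 in KO cerebellum (all genes 3.16% and 1.83%), with a median of 0.21. In WT cerebellum their median was 0.21 as well, with 3 higher and 0 lower at that threshold (all genes 9.04% and 3.75%).

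**Figure D3:**
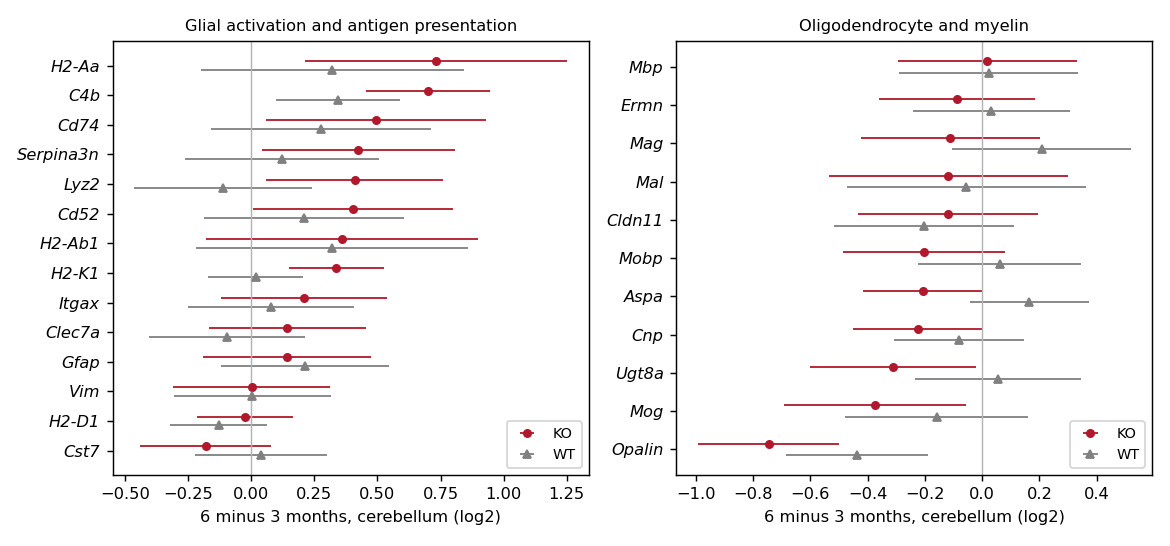
Change with age (6 minus 3 months, log2, with 95% confidence intervals) of each measured gene of glial activation and antigen presentation (left) and of oligodendrocytes and myelin (right), with KO cerebellum as red circles above WT cerebellum as grey triangles. In KO cerebellum the medians are 0.35 and −0.20, and C4b (0.70) and Opalin (−0.75) are the genes that pass the adjusted test.

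The remaining named calls belong to no common group. Ramp2, which turns the calcitonin receptor-like receptor into an adrenomedullin receptor, read 8.05, 7.84 and 8.02 at 6 months and 7.56, 7.57 and 7.53 at 3 months (change 0.42, adjusted p = 0.0309). A brighter probe set changed by 0.29 (adjusted p = 0.302), and Ramp2 rose in WT cerebellum as well (0.39, adjusted p = 0.0114). Cyp2d22, a cytochrome P450, read 7.70, 7.59 and 7.73 at 6 months and 7.26, 7.31 and 7.20 at 3 months (change 0.42, adjusted p = 0.0120). Tcn2, the carrier of vitamin B12, read 7.67, 7.68 and 7.63 at 6 months and 7.47, 7.08 and 7.06 at 3 months (change 0.46, adjusted p = 0.0354), and it rose in WT (0.42, adjusted p = 0.0178). Its other probe sets changed by 0.17 and 0.20 in KO cerebellum, and the called probe set was not the brightest. Nrsn2, a neuronal vesicle protein, and A830021M18Rik, an uncharacterised transcript, rose by 0.44 and 0.67 on probe sets that read at most 4.11 in every KO mouse. A brighter Nrsn2 probe set changed by −0.04.

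Among the falls, Insig2, which holds the cholesterol sensor in the endoplasmic reticulum, read 7.26, 7.29 and 7.28 at 6 months and 7.73, 7.84 and 7.73 at 3 months (change −0.49, adjusted p = 0.0180), while its other probe sets, one of them brighter, changed by 0.00 and 0.05. Pcmtd1, a relative of protein repair methyltransferases, read 6.00, 6.01 and 6.03 at 6 months and 6.51, 6.85 and 6.66 at 3 months (change −0.66, adjusted p = 0.00554), and its brightest probe set changed by −0.19. Hdlbp, the RNA-binding protein vigilin, changed by −0.65 (adjusted p = 0.0309) on its called probe set, against −0.11 to 0.00 on the other ones. The kinases Sgk2 (−0.80) and Agk (−0.77), the homeobox gene Sebox (−0.68) and 2410022M11Rik (−0.69) all fell on probe sets that read at most 4.83 in every KO mouse. Brighter probe sets of Agk and Sebox changed by −0.21 and −0.20.

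Support from a second probe set was rare. Of the 26 named genes, 19 had other probe sets on the array, 45 in all. Of these, 30 moved the same way, and how often probe sets do so over the whole array was not counted. At an unadjusted p under 0.05, 6 did so, where 3.16% and 1.83% of 17097 genes were higher and lower. Those 6 belonged to Gpc6, Nectin3, Ramp2 and Pcmtd1. For 13 genes the called probe set was not the brightest one.

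The probe sets with the largest rises had patterns of their own. Ccl21b, a chemokine that draws lymphocytes and dendritic cells, is read by a probe set of the kind that can match related copies of a gene, so that the copy is uncertain. It read 5.71, 5.62 and 5.83 in 6-month KO mice and 2.96, 5.64 and 3.10 in 3-month KO mice (change 1.82 ± 0.37, adjusted p = 0.0320). Mouse 122972 at 3 months was at the level of the 6-month mice, so the groups overlap. Without that mouse the change was 2.69 (adjusted p = 2.21e-07), and without any other 1 of the 6 the call was lost. In WT cerebellum all mice stepped, with 7.16, 6.90 and 7.22 at 6 months and 3.35, 3.45 and 3.40 at 3 months (change 3.69).

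The unnamed probe set 1447939_PM_a_at had the same order of mice, at 7.98, 8.0 and 7.95 at 6 months and 4.52, 7.88 and 4.68 at 3 months (change 2.28, adjusted p = 0.0414). Without mouse 122972 at 3 months the change was 3.38 (adjusted p = 7.04e-07), and without any other 1 of the 6 the call was lost. Mouse 122972 was the high one at 3 months in KO spinal cord (7.40 against 5.70 and 5.56) and KO midbrain (7.51 against 5.94 and 6.06) too. WT cerebellum read 8.74, 8.77 and 8.73 at 6 months and 4.52, 4.46 and 4.64 at 3 months. The unnamed probe set 1456182_PM_x_at did not overlap between the ages, at 6.16, 5.88 and 5.71 at 6 months and 4.05, 3.72 and 4.09 at 3 months (change 1.97 ± 0.16, adjusted p = 2.11e-10). WT cerebellum read 5.98, 5.87 and 5.93 at 6 months and 3.68, 4.57 and 4.95 at 3 months (change 1.53). All other tissues were between 2.09 and 2.56 in both genotypes.

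Choroid plexus markers varied widely among the mice. Ttr, the thyroxine carrier that choroid plexus makes in quantity, read 12.84, 12.95 and 11.06 in 6-month KO mice and 12.85, 8.15 and 7.01 in 3-month KO mice (change 2.95, adjusted p = 0.713). Kl, the ageing-linked hormone co-receptor klotho, changed by 2.03, and Kcnj13 and Sostdc1 by 1.63 and 1.57, with mouse 122970 at 3 months high each time. None of the 10 measured markers passed the adjusted test, 5 were higher and 0 lower at an unadjusted p under 0.05 (all genes 3.16% and 1.83%), and the median was 1.23. Their mean level was 7.53, 7.61 and 5.52 at 6 months and 7.63, 4.60 and 4.43 at 3 months, so that 2 of the older mice and 1 of the younger were high. In WT cerebellum it was 6.39, 7.71 and 7.88 at 6 months and 6.23, 7.65 and 4.41 at 3 months.

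Since these markers were higher in more mice at 6 months, their level was entered as a covariate in a fit of the 12 cerebellum arrays alone, an alternative chosen after seeing the data. The count of calls was then 0 higher and 2 lower, against 2 and 11 in those arrays without the covariate, and Meg3 was still called (adjusted p = 4.18e-07). The changes with the covariate were 0.64 for C4b, −0.77 for Opalin, −0.74 for Nectin3, −0.95 for Tnc and 0.33 for Tcn2, none of them past the test there (adjusted p = 0.0972 to 0.465). Even without the covariate those arrays gave fewer calls than the main fit (14 higher and 24 lower), so the loss of calls does not rest on the covariate alone. Meninges and fibroblast markers, 10 measured genes, had a median change of 0.24 and gave 1 gene higher at an unadjusted p under 0.05 (all genes 3.16%). This was Igfbp2 (0.88, adjusted p = 0.829), with the same mouse 122970 high at 3 months (8.07 against 6.07 and 6.23).

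**Figure D4:**
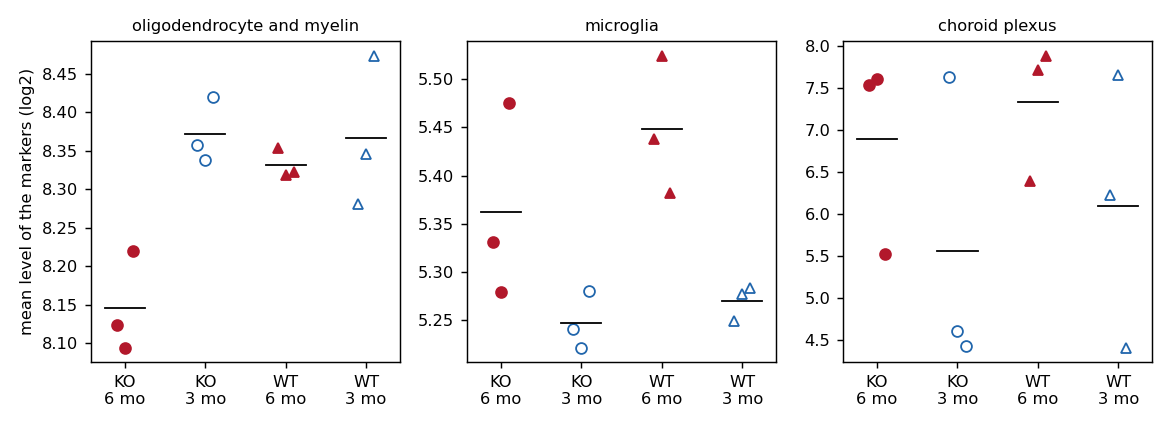
Mean level (log2) of the measured markers of oligodendrocytes and myelin (11 genes), microglia (11) and choroid plexus (10) in each cerebellum array, with KO as circles, WT as triangles, 6 months filled, 3 months open and a bar at each group's mean. Oligodendrocyte markers of 6-month KO mice (8.09 to 8.22) lie below those of 3-month KO mice (8.34 to 8.42), while choroid plexus markers range from 4.43 to 7.63 among the 6 KO mice.

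Neuronal genes of the cerebellum gave no call. All 8 Purkinje cell genes, all 8 granule neuron genes and all 7 interneuron genes failed the adjusted test, with medians of 0.05, −0.04 and 0.03. Of the 23, only Slc17a7, a vesicular glutamate transporter of granule neurons (−0.37, adjusted p = 0.820), had an unadjusted p under 0.05 (all genes 3.16% higher and 1.83% lower). Homer3, a Purkinje cell scaffold, had the largest change of its list at 0.13. Among astrocyte and Bergmann glia genes Fabp7, a brain fatty acid-binding protein of radial and Bergmann glia, read 8.71, 8.93 and 8.91 at 6 months and 9.30, 9.48 and 9.37 at 3 months (change −0.53, adjusted p = 0.525). It fell in WT cerebellum (change −1.16), and without liver arrays in the fit it was called in KO as well (adjusted p = 0.0166).

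No gene of the heat shock (16 genes), integrated stress response (15), immediate early (20), synaptic vesicle (16), voltage-gated channel (20), circadian clock (19) or spinocerebellar ataxia (12) lists was called in KO cerebellum, and none reached an unadjusted p under 0.05. Of 31 stress granule and P-body genes, the class to which Tia1 belongs, Xrn1, an exonuclease (0.27), was the only one at that threshold, and Tial1, the close relative of Tia1, changed by 0.13. Over all genes 3.16% were higher and 1.83% lower at that threshold. Ribosomal protein genes (65) had a median of 0.04 with 3 higher at that threshold, and respiratory chain genes (53) a median of −0.02 with 1 lower. Of 18 cholesterol genes, Sqle (−0.24) and Sc5d (−0.17), both enzymes of synthesis, were lower at that threshold, and the median was −0.10.

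Of 19 targets of the glucocorticoid receptor 5 were higher and 0 lower at an unadjusted p under 0.05 (all genes 3.16% and 1.83%), and 0 passed the adjusted test. Plin4, a lipid droplet coat protein, read 6.94, 6.02 and 6.46 at 6 months and 5.38, 5.64 and 5.51 at 3 months (change 0.97, 95% confidence interval 0.48 to 1.45, adjusted p = 0.144). The changes of Hif3a (0.58), Sult1a1 (0.53) and Lcn2 (−0.51) did not pass either. In Plin4, Hif3a, Sult1a1 and Fkbp5 the highest mouse was 122970 at 6 months. WT cerebellum had 10 of 19 higher and 1 lower at the same threshold (all genes 9.04% and 3.75%), and the difference between these counts was not tested.

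The genes that the study singled out as different between KO and WT mice, chosen on these samples, were also read with age. None of 17 measured ones was called. Besides Plin4, Pnpla7, a lysophospholipase, changed by 0.45 (95% confidence interval 0.19 to 0.70), Ccnf, a cyclin, by −0.32 (−0.62 to −0.01) and Fgfrl1, a decoy growth factor receptor, by −0.28 (−0.50 to −0.06). The intervals of Dcp1b, a decapping cofactor (−0.36 to 0.15), Cntn4, an axonal adhesion molecule (−0.45 to 0.11), Wdfy1, an endosomal adaptor (−0.30 to 0.37), and Tprkb, a subunit of a tRNA-modifying complex (−0.18 to 0.11), all span 0. Those of Cdkn1a (−0.24 to 0.80), Mfsd2a (−0.27 to 0.39), Bid (−0.21 to 0.23), Inca1 (−0.12 to 0.31), Nde1 (−0.07 to 0.47), Tbc1d24 (−0.53 to 0.04), Pnpla2 (−0.31 to 0.07) and Angptl4 (−0.29 to 0.46) did so as well. The brightest Tia1 probe set changed by −0.01 (−0.15 to 0.13).

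In each genotype age and group of mice go together, so an effect of age and other differences between those groups cannot be told apart. The KO change minus the WT change in cerebellum was tested. It was called for 9 probe sets with a higher value in KO (0.02% of 45037) and 17 with a lower one (0.0377%). In 23 of the 26 the WT change passed the adjusted test and the KO change did not. The median absolute change was 0.15 in KO and 0.81 in WT cerebellum. In 13 of the 26 the 3-month WT mice lay outside the range of the other 9 arrays, in 8 the 6-month WT mice did, and in 2, Meg3 and Gpc6, the 6-month KO mice did. Gpc6 and Tmem181c-ps count under more than 1 group, and in 5 probe sets no group stood apart.

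Slc7a3, a transporter of cationic amino acids, shows the common form: it read 6.33, 6.28 and 6.30 in 6-month KO mice and 6.33, 6.49 and 6.37 in 3-month KO mice, against 6.50, 6.50 and 6.47 in 6-month WT mice and 3.89, 3.78 and 4.0 in 3-month WT mice. The difference was −2.69 (adjusted p = 2.14e-10), and the KO change was −0.09. Chac1, a glutathione-degrading enzyme induced by stress, differed by −1.65 with a KO change of −0.09, and Nnt, the mitochondrial transhydrogenase that is known to be mutated in one C57BL/6 substrain, by 1.27 with a KO change of 0.00. Wdfy1 (1.15), Kcnab3, a potassium channel subunit (1.02), Tmem181c-ps, a pseudogene (0.92), and Mkrn1, a ubiquitin ligase (0.68), likewise had KO changes between −0.11 and 0.16. The differences of Slc7a3, Chac1, Nnt and Tmem181c-ps were called in all 12 fits with 1 cerebellum array left out, while those of Wdfy1 and Mkrn1 were lost in 10 fits each and that of Kcnab3 in 4. Of 9 measured genes known to differ between C57BL/6 substrains, 0 were called with age in KO cerebellum (all probe sets 0.0311% higher and 0.0533% lower). In WT cerebellum 3 of the 9 were called higher and 2 lower (all probe sets 0.735% and 0.395%). This list was chosen with earlier results of these data known. It holds Nnt, Wdfy1, Ide and Entpd4, which were called for the KO minus WT difference, so its counts give no separate support. A difference in substrain between groups of mice was not tested. The KO changes of the 9 included those of Entpd4 (0.02), Ide (−0.01), Fgfbp3 (0.01), Cyfip2 (−0.06), Crb1 (0.13), Nlrp12 (0.01) and Mmrn1 (0.32).

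Only 3 of the 38 KO calls differed from WT: Meg3 (difference −1.70 ± 0.27, adjusted p = 0.00156), Gpc6 (−1.80, adjusted p = 0.0482) and the unnamed probe set 1438960_PM_at (−0.91, adjusted p = 0.0320). Chil1, a chitinase-like protein (−1.15), and 4930447F24Rik (−1.39) also differed, with KO changes of −0.55 and −0.56 that did not pass the test. The Chil1 difference was lost in 5 of 12 fits with 1 cerebellum array left out (adjusted p up to 0.178) and that of 4930447F24Rik in 3 (adjusted p up to 0.0832). With 1 of the 12 cerebellum arrays left out at a time, the Meg3 difference was called in all 12 fits and the Gpc6 difference in 1, the fit without KO mouse 122970 at 3 months (−2.28, adjusted p = 4.24e-04). In the other 11 fits the Gpc6 difference had adjusted p up to 0.252. The WT change was above 0 for all 14 probe sets that rose in KO, with a median of 0.35, and below 0 for 19 of the 24 that fell, with a median of −0.26. Over 17097 genes the median WT change was 0.04, and the share of all probe sets on each side of 0 was not counted. In all, 7 of the 38 were called in WT in the same direction.

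**Figure D5:**
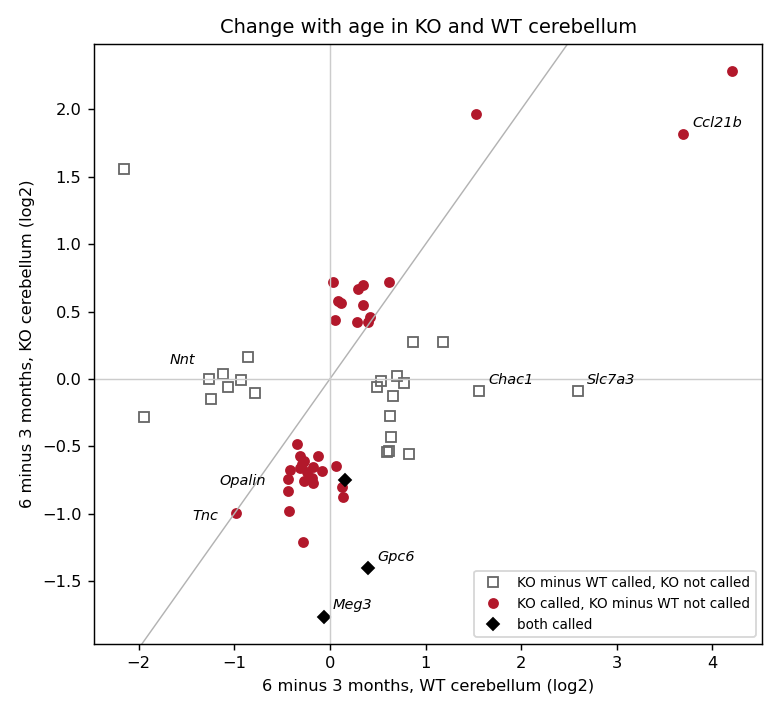
Change with age (6 minus 3 months, log2) in KO cerebellum (vertical axis) against WT cerebellum (horizontal axis) for the 38 probe sets called in KO cerebellum and the 26 called for the KO minus WT difference, with the line of equal change. Meg3 and Gpc6 lie far below the line, Tnc lies on it, and Slc7a3, Chac1 and Nnt have KO changes near 0.

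The age differences were then set beside those of KO spinal cord, where 5 probe sets were higher (0.0111%) and 36 lower (0.0799%), and KO midbrain, where 0 were higher (0%) and 2 lower (0.00444%). Of the 38 probe sets called in cerebellum, Meg3 and Opalin were also called in spinal cord and Meg3 in midbrain, in the same direction. Of the 24 that fell, 13 had a change below 0 in spinal cord (median −0.01) and 20 in midbrain (median −0.18). Of the 14 that rose, 12 had a change above 0 in each (medians 0.11 and 0.12). Over 17097 genes the median change was −0.0004 in spinal cord and 0.0018 in midbrain. The share of all probe sets on each side of 0 was not counted, so these counts are not read as agreement between tissues. The cerebellar change differed from the mean of the other tissues for 1 probe set with a higher value (0.00222%) and 1 with a lower one (0.00222%). These were 1456182_PM_x_at (difference 1.83, adjusted p = 5.87e-07) and Tgs1, which further methylates the cap of small nuclear RNAs. Tgs1 read 5.19, 5.35 and 5.36 at 6 months and 5.87, 6.00 and 5.76 at 3 months in KO cerebellum (change −0.58, adjusted p = 0.00420), against changes of 0.20 in spinal cord and −0.05 in midbrain (difference −0.65, adjusted p = 0.0382), while its other 3 probe sets in cerebellum changed by −0.19 to 0.04. The Tgs1 difference lost its call in 3 of 6 fits with 1 KO cerebellum array left out, without mouse 122972 at 3 months and without 122970 or 122972 at 6 months (adjusted p up to 0.314). Among the other cerebellar calls, Adamts18 (difference −1.06, adjusted p = 0.0525) and Agk (−0.84, adjusted p = 0.0734) had the lowest adjusted p for this difference.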

How the data were processed

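The authors background corrected, quantile normalised and summarised all arrays together with RMA in R 2.14.0, and deposited log2 values per probe set. The 104 control probe sets were left out of 45141. Of the 45037 tested, 28898 carried 1 gene symbol in the platform annotation, 551 several and 15588 none, and only the first were named.

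Differences were tested with limma 3.58.1 in R 4.3.3, in 1 fit of 16 group means over 48 arrays with Benjamini-Hochberg adjustment over all probe sets, after tests on simulated data. Calls are at an adjusted p under 0.05, two-sided. An exact permutation test of 3 against 3 mice cannot go below p = 0.1. Sources do not say how mice were allotted to cages or days, so p-values measure only the spread between mice within a group. That spread was pooled over all 16 groups, with WT mice and liver, and not taken from the KO cerebellum arrays alone. Arrays of different tissues from the same mouse were entered as independent.

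Named genes are the 12 per direction with the largest called change and no overlap, the 6 per direction with the largest called KO minus WT difference, the 5 per direction with the largest called tissue difference, and of each list the called members or the 4 largest changes. Other probe sets and genes named were chosen after their values were seen. Lists used the brightest probe set per gene (17097 genes). The members and lists were chosen with earlier results of these data known.

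Mouse numbers recur at both ages, but same-numbered mice did not deviate together (correlations −0.09 to 0.08 in KO and 0.05 to 0.08 in WT cerebellum). Alternatives tried were other sets of arrays, blocks, a filter on dim probe sets, repeated quantile normalisation, another prior, array weights, stricter thresholds, and each array left out.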

Additional observations from a re-analysis of the deposited data

Results flagged for a closer look

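The age difference in cerebellum was found to differ between KO and WT mice, by the test of the difference itself, for these named genes (6 minus 3 months in KO minus the same in WT, log2). It was higher in KO for Nnt (1.27), Wdfy1 (1.15), Kcnab3 (1.02), Tmem181c-ps (0.92) and Mkrn1 (0.68). It was lower in KO for Slc7a3 (−2.69), Gpc6 (−1.80), Meg3 (−1.70), Chac1 (−1.65), 4930447F24Rik (−1.39) and Chil1 (−1.15). Of these, Meg3 and Gpc6 were called within KO cerebellum.

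Between tissues of KO mice, the age difference in cerebellum departed from the mean of spinal cord and midbrain for Tgs1 (−0.65) and for the unnamed probe set 1456182_PM_x_at (1.83). Groups of 3 mice are too small to look for single outlying mice by a test.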

How the results depend on the processing

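The counts of calls depended on which arrays set the spread. In KO cerebellum (14 higher and 24 lower), the 12 cerebellum arrays alone called 2 and 11, the 36 nervous tissue arrays 69 and 99, the 6 KO cerebellum arrays 1 and 4, and array weights 102 and 158. Repeated quantile normalisation called 4 and 13, an adjusted p under 0.01 called 2 and 10, and without dim probe sets 15 were lower. The choroid plexus covariate, chosen after seeing the data, left 0 and 2. For WT cerebellum (509 called) these were 303, 1710, 1404 with array weights, 833 without dim probe sets, 171 at 0.01 and 124 with the covariate. For the KO minus WT difference (26) they were 8, 78, 122 with array weights, 15 after repeated quantile normalisation, 12 at 0.01 and 6 with the covariate. For the tissue difference (2) they were 18 without liver, 44 with array weights, 4 with mouse as a random block, 1 with a trended and robust prior and 1 at 0.01. Fits of cerebellum arrays alone cannot give that difference.

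The replicate block left 1 higher and 2 lower in the 6 KO arrays, 147 in WT, 4 for the KO minus WT difference and, added after seeing the data, 5 for the tissue difference. The mice share only a number.

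Leaving out 1 array at a time gave 1 to 11 higher and 4 to 25 lower in KO cerebellum, 206 to 556 in WT, 16 to 34 for the KO minus WT difference and 1 to 11 for the tissue difference. Counts of KO calls moved by over 1.5 times without mouse 122973 at 3 months (2 higher, 6 lower), 122972 at 3 months (5 lower), and 122970 (1 and 4), 122972 (8 and 11) or 122973 (7 and 12) at 6 months. WT counts did so without 3-month replicate 1 (266) or 6-month replicates 1, 2 or 3 (233, 206 and 290). KO minus WT counts did so without KO mice 122972 at 3 months (17) and 122970 or 122972 at 6 months (17 and 16) or WT 6-month replicates 2 or 3 (17 each). Tissue counts did so without mouse 122970 at 3 months (11), and 122970 (1) or 122973 (4) at 6 months. Of the 38 KO calls, 1 (Meg3) was kept under all settings run at an adjusted p under 0.05, and no called gene changed sign. Of these 38, 19 had a mean under 5 in KO cerebellum.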

Other observations

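The fit of the 36 nervous tissue arrays, in which liver does not set the spread, called more genes in KO cerebellum, and those named here were chosen after their values were seen. In that fit, whose counts over all probe sets are given above, 0 of 11 microglial and 0 of 13 interferon response genes of the lists were called. Outside these lists, Ctss, a lysosomal protease of antigen-presenting cells, was higher by 0.39 (limma, adjusted p = 0.00951), Mpeg1, a pore-forming protein of phagocytes, by 0.48 (adjusted p = 0.0409), Irgm1, an interferon-induced GTPase, by 0.54 (adjusted p = 0.0396) and Irf1, an interferon-activated transcription factor, by 0.49 (adjusted p = 0.0377). Larger changes called in that fit included Cep350 (0.99), Gabrb2 (−0.94), Dlc1 (−0.87) and Cnr1 (−0.81), so no theme is drawn from the genes named. Tpbg, a membrane glycoprotein of neurons, was higher on the probe sets called there (0.58 and 0.77). Eomes, the transcription factor of unipolar brush cells, was lower (−0.62, adjusted p = 0.0328), as were Ednrb, an endothelin receptor (−0.59, adjusted p = 0.0350), and Lpar1, a lysophosphatidic acid receptor of oligodendrocytes (−0.53, adjusted p = 0.00766). The Syncrip probe sets called in that fit, for an RNA-binding protein, changed by −0.61 and −0.42. Probe sets of Tpbg and Syncrip that were not called in that fit are not given here, so these are not support from a second probe set.

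The unnamed probe set 1427820_PM_at had the largest KO minus WT difference in cerebellum (3.71). It read 7.80, 7.66 and 8.94 in 6-month KO mice and 6.39, 7.49 and 5.85 in 3-month KO mice, against 6.15, 6.79 and 6.78 in 6-month WT mice and 9.18, 7.89 and 9.10 in 3-month WT mice.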
